A study of Homo sapiens with 9 samples.

Results

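The hepatocyte lineage transcription factors HNF4A, FOXA1, FOXA2, FOXA3, CEBPA, ONECUT1, NR1H4 and PROX1 were examined in SNU-398, a hepatocellular carcinoma (HCC) cell line of mesenchymal-like character. They were chosen by gene name, 8 of the 60642 names in the deposited tables, with no threshold on a measured value. RNA-seq had been made of 3 groups of 3 libraries, the vector control, cells overexpressing EMX1-FL and cells overexpressing EMX1-X1. EMX1-FL is the full-length form of the homeobox factor EMX1, and EMX1-X1 is a splice isoform that ends in another terminal exon. The isoforms had been introduced by lentivirus, and the cells of all 3 groups had gone through puromycin selection. The labels give the vector control cells the wild type genotype, and neither they nor the methods say what parted the 3 libraries of a group. The study describes data of its overexpression experiments as biological replicates, without saying whether each library was a culture of its own, so p-values measure the spread between these libraries, part of which may be technical. SNU-398 is 1 cell line grown alone, without the other cells of a liver.

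Hepatocyte identity rests on a small network of factors that bind each other's genes as well as those of liver proteins. FOXA1, FOXA2 and FOXA3 are forkhead factors, and the first of them is known as a pioneer that opens chromatin in early endoderm. HNF4A is the nuclear receptor regarded as the central regulator of the hepatocyte, CEBPA is the basic leucine zipper factor of mature hepatocyte metabolism, and ONECUT1 (also called HNF6) is a cut homeodomain factor of hepatoblasts and bile ducts. NR1H4 (FXR) is the bile acid receptor, and PROX1 is a homeodomain factor of hepatoblasts that is also the defining factor of lymphatic endothelium. Loss of part of this network is well known in poorly differentiated HCC.

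Counts per library were between 21562703 and 25197970. EMX1 itself was at 9.34 to 12.9 CPM (counts per 1000000 counts) in the vector control, 135 to 251 CPM in EMX1-FL and 145 to 294 CPM in EMX1-X1, so that no library went against its label. Counts were given per gene name, and the EMX1 row therefore does not tell the isoforms apart. The libraries also differed in a way the groups do not describe. A first principal component with 39.6% of the variance set vector control 3, EMX1-FL 1 and EMX1-X1 2 and 3 (4 libraries, called side B) apart from vector control 1 and 2, EMX1-FL 2 and 3 and EMX1-X1 1 (5 libraries, side A). These sides come from the counts themselves and from no label. The median GC content was 60.4% for genes over 0.5 log2 CPM higher on side B and 41.4% for genes as much higher on side A. EMX1 itself (64.2% GC) was 1.41 log2 CPM higher on side B, rank 62 of the 18574 genes tested. Such side differences are plain means over libraries of all groups. The sides hold unlike shares of overexpression libraries, so the overexpression itself enters this value for EMX1. In the vector control EMX1 was at 12.9 CPM on side B and at 9.34 and 9.99 CPM on side A. In EMX1-FL it was at 251 CPM on side B and at 135 and 145 CPM on side A. In EMX1-X1 it was at 294 and 288 CPM on side B and at 145 CPM on side A. Within the EMX1-FL and EMX1-X1 groups the side and the level of EMX1 cannot be told apart.

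The promoters of these factors differ in base composition, and 3 are shown because their genes follow different patterns in the libraries: ONECUT1, higher in all 6 overexpression libraries; CEBPA, the factor most unlike between side A and side B; and NR1H4, without a count. The stretches run from 250 bases before to 50 bases after a start site of the RefSeq annotation (GRCh38.p14), 5′ to 3′ on the strand of the gene, with each CpG in capitals. Such a window was at hand for 6 of the 8 factors, at chr15:52790287-52790586 on the minus strand for ONECUT1, chr19:33302485-33302784 on the minus strand for CEBPA and chr12:100503110-100503409 on the plus strand for NR1H4.
ONECUT1: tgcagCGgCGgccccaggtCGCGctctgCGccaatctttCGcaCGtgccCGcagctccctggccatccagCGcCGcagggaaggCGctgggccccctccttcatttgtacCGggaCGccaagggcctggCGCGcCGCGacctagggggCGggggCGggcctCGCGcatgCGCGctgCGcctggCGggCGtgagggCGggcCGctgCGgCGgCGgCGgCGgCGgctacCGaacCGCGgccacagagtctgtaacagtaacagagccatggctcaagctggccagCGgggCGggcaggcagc
CEBPA: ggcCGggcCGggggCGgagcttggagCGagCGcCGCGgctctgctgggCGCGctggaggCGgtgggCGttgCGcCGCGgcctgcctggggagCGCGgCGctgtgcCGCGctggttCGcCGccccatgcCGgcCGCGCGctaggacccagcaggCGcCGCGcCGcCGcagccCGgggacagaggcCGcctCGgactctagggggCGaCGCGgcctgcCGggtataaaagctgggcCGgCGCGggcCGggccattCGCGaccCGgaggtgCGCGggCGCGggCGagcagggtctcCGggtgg
NR1H4: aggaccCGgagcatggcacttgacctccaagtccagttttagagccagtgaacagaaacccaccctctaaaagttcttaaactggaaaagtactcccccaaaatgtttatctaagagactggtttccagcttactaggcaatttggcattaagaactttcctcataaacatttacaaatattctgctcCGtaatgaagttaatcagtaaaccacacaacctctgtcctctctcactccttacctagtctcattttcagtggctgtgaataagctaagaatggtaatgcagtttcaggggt

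The CEBPA window held 50 CpG and the ONECUT1 window 39, and the GC content of the former was 80.7%, while the NR1H4 window held 2 CpG and 41.7% GC. FOXA3 (37 CpG) and FOXA1 (34 CpG) lay with the first pair, and the HNF4A windows at 2 start sites held 11 and 9 CpG. The median over all 35116 windows was 14 CpG (quartiles 4 and 28). The letters TAAT, the core that many homeodomain proteins bind, were searched on both strands and were found 4 times at NR1H4, 4 times at the second HNF4A start, once at the first HNF4A start and once at FOXA1, and not in the windows of ONECUT1, CEBPA and FOXA3. Of all windows, 50.2% held TAAT. These are matches of letters in a short window and not measured binding.

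The 8 factors fell into 3 levels of expression. FOXA1 (chromosome 14, 37589552 to 37596059, minus strand, GRCh38 as used in the count table) was highest, with a mean of 25.6 TPM (transcripts per 1000000 transcripts, a scale per gene length) over the 9 libraries and a range of 22.4 to 29.9. CEBPA (chromosome 19, 33299934 to 33302534, minus strand) followed with 20.8 TPM and a wider range of 12.5 to 33.7. These ranges overlapped, and FOXA1 was the higher in 6 of 9 libraries. CEBPA may be understated, since it shares 43.9% of exon bases with the annotated genes AC008738.3 and AC008738.5, and read pairs on shared bases were not counted. Both of those genes were at 0 counts in every library.

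FOXA3 (chromosome 19, 45863989 to 45873797, plus strand) was at 2.98 TPM (1.96 to 5.08), below CEBPA in 9 of 9 libraries. ONECUT1 (chromosome 15, 52755053 to 52791078, minus strand) was at 1.04 TPM (0.484 to 1.49), below FOXA3 in 9 of 9. PROX1 (chromosome 1, 213983181 to 214041510, plus strand) was at 0.412 TPM (0.0534 to 0.806). The range of PROX1 overlapped that of ONECUT1, although PROX1 was the lower in each of the 9 libraries.

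The 3 nuclear receptor and forkhead factors at the bottom were at or near 0. HNF4A (chromosome 20, 44355700 to 44434596, plus strand) had 2 counts in all, 1 in EMX1-FL 1 and 1 in EMX1-FL 2. FOXA2 (chromosome 20, 22581005 to 22585455, minus strand) and NR1H4 (chromosome 12, 100473708 to 100564414, plus strand) had none in 9 libraries. At these depths a count of 0, with 3 counts as its limit, allows up to 0.0735 TPM per library for HNF4A, 0.207 TPM for FOXA2 and 0.148 TPM for NR1H4, for counting error only. These 3 did not pass the filter on low counts and were not tested, so a change between groups was not detectable at this depth. The other 5 factors were tested.

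**Figure D1:**
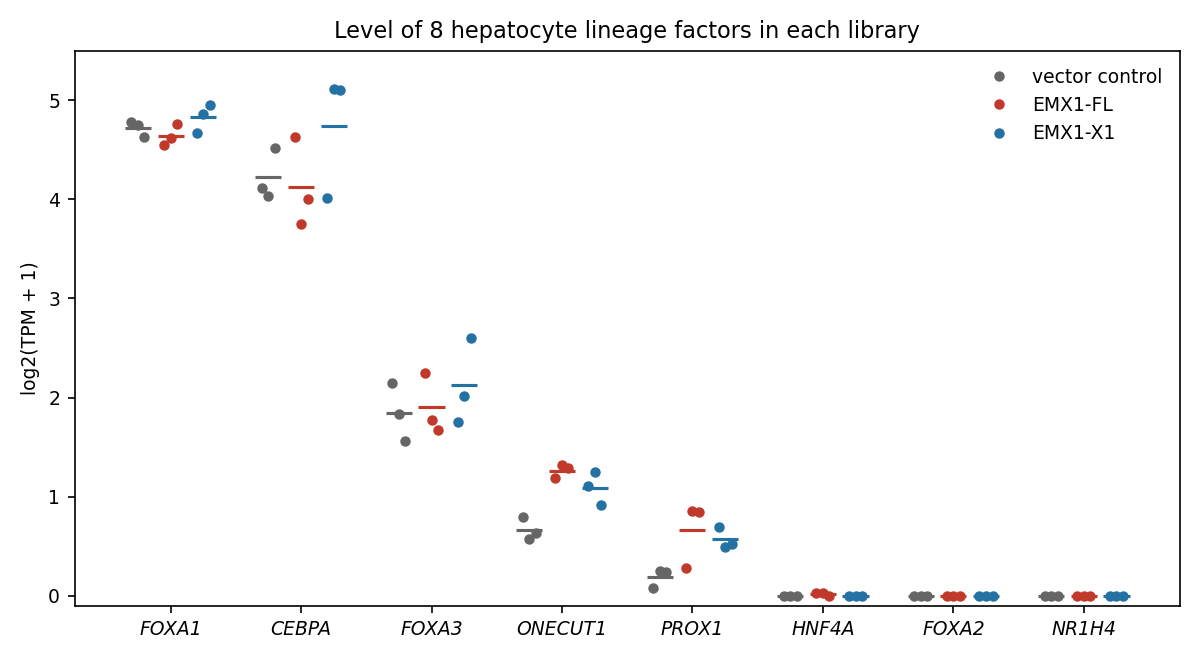
Level of the 8 factors in each library, as log2(TPM + 1), with a point for each library and a bar for the mean of the log2 values in the 3 libraries of a group. FOXA1 and CEBPA lie between 12.5 and 33.7 TPM, ONECUT1 and PROX1 sit higher in both overexpression groups than in the vector control, and HNF4A, FOXA2 and NR1H4 lie at or near 0.

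EMX1-FL was compared with the vector control to ask whether the full-length isoform shifts the lineage factors. ONECUT1 and PROX1 passed the study's threshold, an unadjusted p under 0.05 together with a log2 fold change of 1 or more in either direction, and both were higher. With them 2 of the 5 factors tested passed, against 2.42% of all 18574 genes tested. FOXA1, FOXA3 and CEBPA did not pass. The median log2 fold change of the 5 was -0.00, and 0.045 over all genes tested. When the adjusted p had to be under 0.05 as well, none of the 5 passed in edgeR or in DESeq2, against 0.0700% of all genes in edgeR.

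ONECUT1 was at 1.20, 0.829 and 1.03 CPM in the vector control, and at 2.13, 2.44 and 2.26 CPM in EMX1-FL. Every EMX1-FL library lay above every vector control library. The fold change was 2.23 (log2 1.16 ± 0.31 SE, n = 3 against 3; edgeR quasi-likelihood test, p = 0.00291, adjusted p = 0.302), and the exact permutation test gave p = 0.1, the smallest that 3 against 3 libraries allow. The counts behind these values were 19 to 28 and 48 to 58 read pairs. In bulk RNA a change in the number of expressing cells and in RNA per cell cannot be told apart. The difference was 1.17 on side A (2 libraries against 2) and 0.99 on side B (1 against 1), in log2 CPM.

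PROX1 was at 0.128, 0.480 and 0.495 CPM in the vector control and at 0.532, 1.94 and 1.85 CPM in EMX1-FL. EMX1-FL 2 and 3 stood well above the controls, while EMX1-FL 1 and vector control 3 had 12 counts each and were parted by their library sizes alone. The fold change was 3.87 (log2 1.95 ± 0.59 SE, n = 3 against 3; edgeR p = 0.00644, adjusted p = 0.441; exact permutation p = 0.1). Within the sides the difference in log2 CPM was 2.51 on side A (2 against 2) and 0.09 on side B (1 against 1), so the higher PROX1 level of EMX1-FL was measured on side A. The antisense gene PROX1-AS1, which shares exon bases with PROX1 and whose reads could not be told apart by strand, had 0 to 7 counts.

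FOXA1 was at 31.4, 32.0 and 32.0 CPM in the vector control and at 27.0, 28.0 and 29.7 CPM in EMX1-FL. The groups did not overlap, but the difference was small (log2 -0.17 ± 0.16 SE, 95% interval -0.53 to 0.18; edgeR p = 0.312, adjusted p = 0.997; exact permutation p = 0.1). Without overlap were thus 3 of the 5 factors tested, against 10.5% of all genes. FOXA3 differed by -0.00 on the log2 scale (95% interval -0.84 to 0.84), with 26 to 49 counts in EMX1-FL and 31 to 46 in the vector control. CEBPA differed by -0.17 (95% interval -0.92 to 0.58).

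In EMX1-X1 against the vector control, the splice isoform was set against the same 3 control libraries, so that the comparisons share their controls. PROX1 passed the study's threshold and was higher, which makes 1 of the 5 factors tested, against 2.50% of all genes. ONECUT1 had a p under 0.05 with a fold change below the threshold. The median of the 5 was 0.50 (0.010 over all genes tested). With the adjusted p under 0.05 none of the 5 passed in edgeR or DESeq2 (0.00538% of all genes passed in edgeR, EMX1 alone). ONECUT1 and PROX1, 2 of the 5, had no overlap between groups, against 14.7% of all genes.

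PROX1 was at 1.46, 0.956 and 1.05 CPM in EMX1-X1, from 35, 23 and 26 counts, all above the vector control. The fold change was 3.10 (log2 1.63 ± 0.59 SE, n = 3 against 3; edgeR p = 0.0176, adjusted p = 0.568; exact permutation p = 0.1). The p was 0.058 without EMX1-X1 1 and 0.0681 without vector control 1, which had 3 counts. Within the sides the log2 CPM difference was 2.15 on side A (1 against 2) and 0.91 on side B (2 against 1).

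ONECUT1 was at 1.87, 2.20 and 1.45 CPM in EMX1-X1, again above each vector control library. The log2 fold change was 0.85 ± 0.31 SE (n = 3 against 3; edgeR p = 0.0181, adjusted p = 0.568; exact permutation p = 0.1), or 1.80-fold. The p was 0.0759 without EMX1-X1 2 and 0.0769 without vector control 2. The within-side differences were 0.85 (1 against 2) and 0.75 (2 against 1) in log2 CPM.

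CEBPA was at 10.4, 23.0 and 23.4 CPM in EMX1-X1 and at 11.4, 11.2 and 17.5 CPM in the vector control. The high values belonged to EMX1-X1 2 and 3 and vector control 3, all of side B, and EMX1-X1 1 lay below each control. The log2 fold change was 0.50 (95% interval -0.24 to 1.24; edgeR p = 0.167; exact permutation p = 0.4), with -0.12 on side A (1 against 2) and 0.40 on side B (2 against 1) in log2 CPM. FOXA1 (log2 0.02, 95% interval -0.34 to 0.37) and FOXA3 (log2 0.32, 95% interval -0.51 to 1.15) did not pass either. The FOXA1 values were 28.6, 32.5 and 35.5 CPM, on either side of the controls.

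The isoforms were then set against each other. None of the 5 factors passed the study's threshold between EMX1-FL and EMX1-X1 in edgeR or DESeq2, against 1.42% of all genes in edgeR. None had an unadjusted p under 0.05 in edgeR, against 1418 of all 18574 genes. At the adjusted threshold 0% of all genes passed in edgeR, and 8.38% were without overlap between the groups. None of the 5 was without overlap. The counts over all genes in this comparison rested on single libraries: 263 genes passed the study's threshold and 0 the adjusted one, but 1108 and 490 did without EMX1-FL 1, 759 and 1 without EMX1-X1 1, 162 and 0 without EMX1-X1 2, and 141 and 0 without EMX1-X1 3. For ONECUT1 the log2 difference was 0.31, with a 95% interval of -0.34 to 0.95, and for PROX1 it was 0.32, with an interval of -0.85 to 1.49. These intervals do not show that the isoforms act alike. CEBPA had the largest difference of the 5, -0.67 (95% interval -1.42 to 0.07; edgeR p = 0.0734, adjusted p = 0.611; exact permutation p = 0.2). It was -0.998 without EMX1-FL 1 and -0.97 without EMX1-X1 1, where the unadjusted p was under 0.05 (adjusted p = 0.062 and 0.154 in edgeR). FOXA1 (-0.19, -0.54 to 0.16) and FOXA3 (-0.32, -1.15 to 0.51) also had intervals that included 0. The median of the 5 was -0.19 (0.021 over all genes tested).

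**Figure D2:**
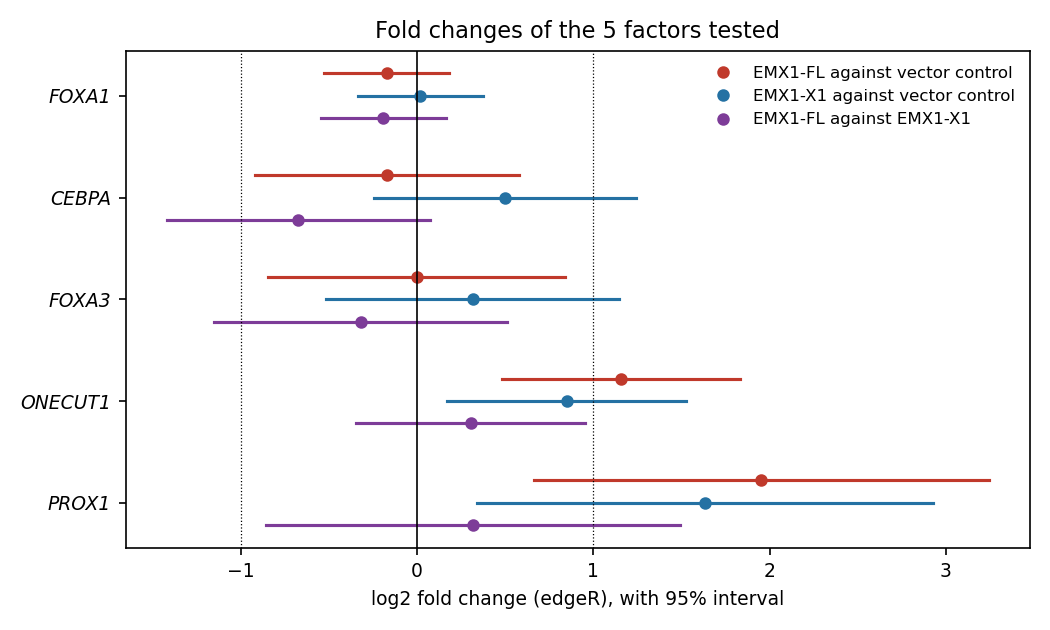
Fold changes on the log2 scale (horizontal axis) of the 5 factors tested, with 95% intervals from the edgeR fit, for the 3 comparisons of 3 libraries against 3. Solid and dotted lines mark 0 and the study's threshold of 1. The intervals of ONECUT1 and PROX1 lie above 0 in both comparisons with the vector control, and all 5 intervals of EMX1-FL against EMX1-X1 include 0.

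The spread of CEBPA followed the sides of the first principal component. Over the 9 libraries it was 0.95 log2 CPM higher on side B than on side A, rank 585 of the 18574 genes tested, and the EMX1-FL library of side B (16.9 CPM) stood above the other EMX1-FL libraries (8.72 and 10.1 CPM). The GC content of its transcripts was 65.9%, against a median of 49.6% over the genes tested. FOXA3 (63.8% GC) was 0.38 higher on side B, FOXA1 (57.1%) 0.08 and ONECUT1 (52.1%) 0.03, while PROX1 (46.9%) was lower on side B, by -0.22. The order of the 5 by side difference was the order by GC content, as a description of 5 genes. With a GC offset the log2 fold change of CEBPA was -0.02 in EMX1-X1 against the vector control and -0.21 between the isoforms, and with the side as a covariate the latter was -0.36, with an unadjusted p under 0.05 (adjusted p = 0.349 in edgeR). CEBPA-DT, the divergent transcript beside CEBPA, was at 20.9 to 30.5 CPM in the vector control, 23.1 to 41.9 CPM in EMX1-FL and 27.3 to 34.2 CPM in EMX1-X1, and did not pass in any comparison.

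**Figure D3:**
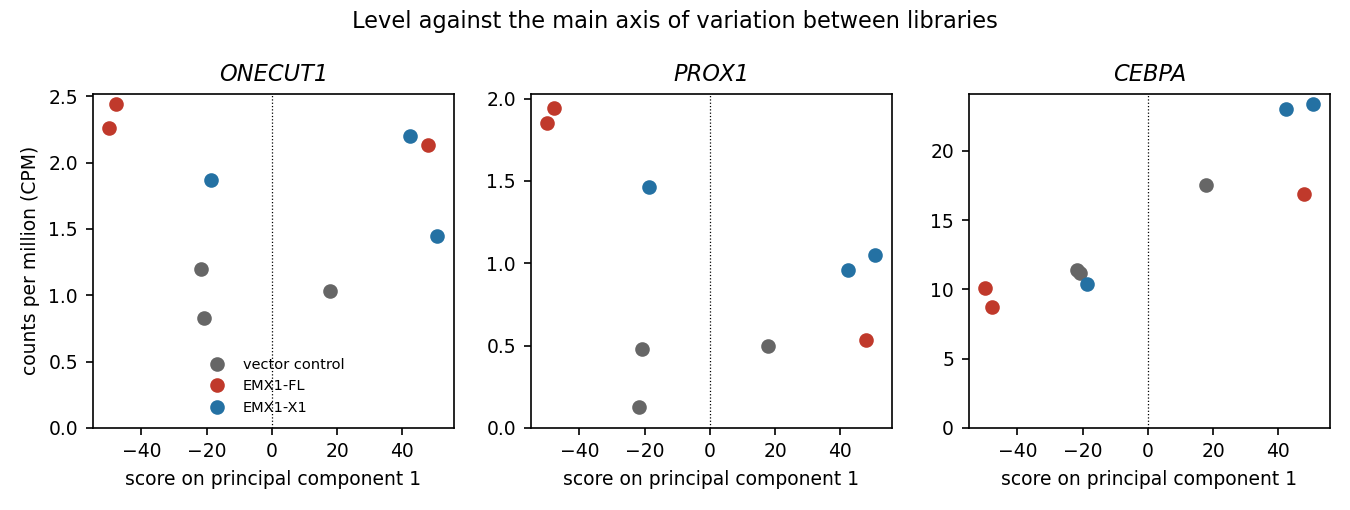
CPM of ONECUT1, PROX1 and CEBPA (vertical axes, from 0) against the score of each library on the first principal component (horizontal axis), with a point for each library and colours for the groups. ONECUT1 separates the vector control from the other groups on both sides of the dotted line, PROX1 of EMX1-FL is high in the 2 libraries on the left and near the controls in the library on the right, and CEBPA is higher in the 4 libraries on the right.

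Around these factors, 26 other transcription factors of the liver were listed, of which 21 were tested. The C/EBP relatives of CEBPA were far more abundant than CEBPA itself: CEBPG, a C/EBP protein without a classical activation domain, was at a mean of 420 TPM and CEBPB, the C/EBP of the acute phase and of regeneration, at 381 TPM. Among all 34 factors FOXA1 ranked 6 and CEBPA 10, while FOXA3, ONECUT1 and PROX1 ranked 21, 23 and 24. HNF4G, the paralogue of HNF4A, was at 6.99 TPM (4.31 to 9.71), and its log2 fold changes were 0.10 in EMX1-FL and -0.11 in EMX1-X1 against the vector control. HNF4G was named after its values were seen.

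**Figure D4:**
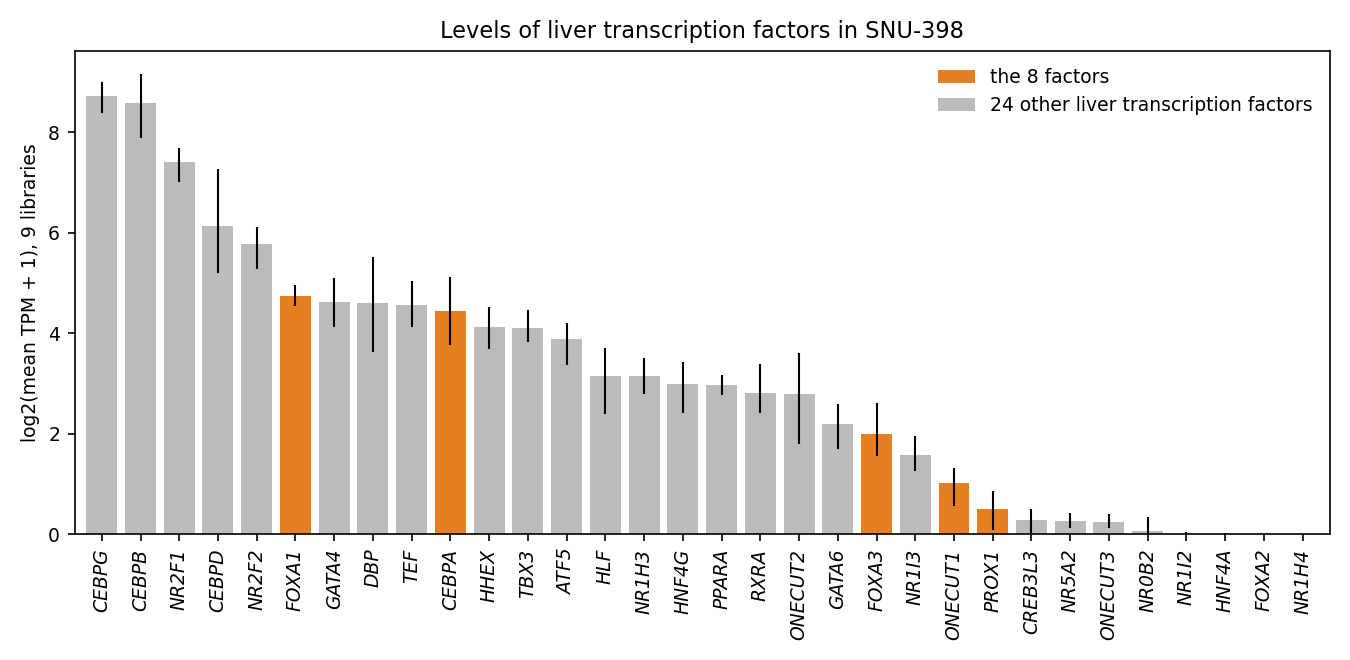
Mean TPM over 9 libraries, drawn as log2(mean TPM + 1), of the 8 factors (orange) and 24 of the 26 other liver transcription factors (grey), in order of level, with black lines from the lowest to the highest library. CEBPG and CEBPB lead, FOXA1 and CEBPA rank 6 and 10, and HNF4A, FOXA2 and NR1H4 are the 3 lowest.

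In EMX1-FL against the vector control 1 of the 21 other factors passed the study's threshold and was higher, CEBPD, an early-response C/EBP protein, where 2.42% of all genes passed in either direction, and none was lower. An unadjusted p under 0.05 was found for 5 of the 21, against 1077 of all 18574 genes. Among the 5 was NR2F1 (COUP-TFI), an orphan nuclear receptor that was the third most abundant of the 34 factors and is named after its values were seen. Its log2 fold change was -0.66 ± 0.16 SE (edgeR adjusted p = 0.216), with a difference in log2 CPM of -0.67 on side A (2 against 2) and -0.64 on side B (1 against 1). In EMX1-X1 against the vector control none of the 21 passed the study's threshold in edgeR, or in DESeq2. There 5 had an unadjusted p under 0.05, against 1506 of all genes. Between the isoforms 1 was lower in EMX1-FL, DBP, the clock-controlled bZIP factor named for the albumin promoter, where 1.42% of all genes passed. An unadjusted p under 0.05 was found between the isoforms for 5 of the 21, against 1418 of all genes. None of the 21 passed at the adjusted threshold in any of the 3 comparisons in edgeR or DESeq2. With no filter beyond 1 count CEBPD passed it in EMX1-FL (adjusted p = 0.00415) and DBP between the isoforms (adjusted p = 0.000583), and without EMX1-FL 1 DBP and CEBPB passed it between the isoforms. The median log2 fold changes of the 21 were -0.05, 0.15 and -0.08, beside 0.045, 0.010 and 0.021 over all genes tested.

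CEBPD was at 14.5, 12.6 and 13.9 CPM in the vector control, 52.3, 17.6 and 19.0 CPM in EMX1-FL and 15.1, 35.9 and 29.8 CPM in EMX1-X1. EMX1-FL 1 stood apart. The log2 fold change of EMX1-FL was 1.12 ± 0.41 SE (edgeR p = 0.0188, adjusted p = 0.679; exact permutation p = 0.1), and the call was lost without EMX1-FL 1 (0.42) and without vector control 2 (1.03). With the side as a covariate (0.92, adjusted p = 0.0717) and with a GC offset (0.95, adjusted p = 0.00904) the fold change fell under the threshold while the p was smaller. The difference in log2 CPM was 0.44 on side A (2 against 2) and 1.91 on side B (1 against 1). DBP was at 28.4, 19.7 and 29.6 CPM in EMX1-FL and 31.2, 71.6 and 77.7 CPM in EMX1-X1, a log2 difference of -1.22 ± 0.33 SE (edgeR p = 0.00307, adjusted p = 0.611; exact permutation p = 0.1). Its difference in log2 CPM was -0.37 on side A (2 against 1) and -1.39 on side B (1 against 2), and the fold change was under the threshold without EMX1-X1 3 (-0.99), with the side as a covariate (-0.95) and with a GC offset (-0.77). It was -1.53 without EMX1-X1 1 (adjusted p = 0.0961) and -1.27 without EMX1-FL 1 (adjusted p = 0.0494).

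ONECUT2, the paralogue of ONECUT1, is given after its values were seen. Its counts were 488, 499 and 307 in the vector control, against 452, 793 and 1034 in EMX1-FL, and 693, 675 and 570 in EMX1-X1. Its log2 fold change in EMX1-FL was 0.87 ± 0.30 SE (edgeR adjusted p = 0.611), and in EMX1-X1 0.53 ± 0.30 SE (adjusted p = 0.655). The third member of the family, ONECUT3, had 4 to 13 counts a library.

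Genes that hepatocytes express under these factors were mostly at or near 0. Of 32 such genes 10 had no count in any library, among them the transthyretin gene TTR, the fibrinogen chains FGA and FGB, the coagulation factor gene F9 and the gluconeogenic enzymes PCK1 and G6PC, and 24 were not tested. The summed level of the 32 was 11.1 to 20.2 TPM in the vector control, 14.9 to 21.3 TPM in EMX1-FL and 17.1 to 20.1 TPM in EMX1-X1. CYP2D6, a drug-metabolizing cytochrome P450, and HPD, an enzyme of tyrosine breakdown, were the highest of them, at a mean of 7.19 and 2.84 TPM. Most defining markers of mature hepatocytes were thus at or near 0 in a line labelled as HCC.

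Of the 8 targets tested, ALB (albumin) passed the study's threshold in both comparisons with the vector control, where 2.42% and 2.50% of all genes passed. It was at 0.642, 0.436 and 0.742 CPM in the vector control, 0.976, 1.64 and 2.45 CPM in EMX1-FL and 0.832, 1.58 and 1.53 CPM in EMX1-X1. Each overexpression library lay above each control, at 20 to 53 counts against 10 to 18. The log2 fold change was 1.46 ± 0.45 SE in EMX1-FL (edgeR p = 0.00722, adjusted p = 0.467; exact permutation p = 0.1) and 1.11 ± 0.45 SE in EMX1-X1 (p = 0.0314, adjusted p = 0.576; exact permutation p = 0.1). Within the sides the EMX1-FL difference in log2 CPM was 1.76 on side A (2 against 2) and 0.36 on side B (1 against 1). The call in EMX1-X1 was lost without EMX1-X1 2 (0.96), EMX1-X1 3 (0.97), vector control 1 (1.14) or vector control 2 (0.90), with log2 fold changes in parentheses. Even at its highest, 2.77 TPM, albumin was a minor transcript. No target passed at the adjusted threshold, and none passed the study's threshold between the isoforms, in edgeR or DESeq2, with 0 at an unadjusted p under 0.05. The median log2 fold changes of the 8 were 0.24, 0.06 and -0.09 in the order of the comparisons above. With ALB, 2 of the 8 were without overlap in each comparison with the vector control, against 10.5% and 14.7% of all genes.

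Genes of bile acid synthesis, transport and sensing were read as the field of NR1H4. Of 15 genes 5 were tested, and none passed the study's threshold in any comparison in edgeR or DESeq2, with medians of 0.03, 0.35 and -0.48. An unadjusted p under 0.05 was found for 0, 1 and 1 of the 5, against 1077, 1506 and 1418 of all 18574 genes. The canalicular pump gene ABCB11 and the rate-limiting enzyme gene CYP7A1, which the bile acid receptor switches on and off in liver, had 1 count each in 9 libraries. NR0B2 (SHP), the repressor that carries the NR1H4 signal, had 3. The receptor of the enterohepatic FGF19 hormone, FGFR4, was expressed at a mean of 52.1 TPM (37.6 to 76.3) and did not pass. RXRA, the partner that NR1H4 binds DNA with, was at 14.6, 16.3 and 17.5 CPM in the vector control, 22.4, 14.6 and 13.3 CPM in EMX1-FL and 19.3, 28.9 and 30.6 CPM in EMX1-X1. Its log2 fold change in EMX1-X1 was 0.70 ± 0.24 SE (edgeR p = 0.0139, adjusted p = 0.541; exact permutation p = 0.1), under the fold change threshold, and RXRA was 0.64 log2 CPM higher on side B.

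Coregulators through which the nuclear receptors act had counts in every library, and 14 of 14 were tested, with medians of -0.17, -0.14 and 0.02. PPARGC1A, the coactivator of gluconeogenesis, passed the study's threshold in EMX1-FL and was higher, where 2.42% of all genes passed, and the other 13 did not pass it in any comparison. It was at 0.985, 0.786 and 0.288 CPM in the vector control and 1.02, 2.06 and 1.52 CPM in EMX1-FL, a log2 fold change of 1.16 ± 0.48 SE (edgeR p = 0.0324, adjusted p = 0.803; exact permutation p = 0.1). EMX1-FL 1 was barely above the highest control. The call was lost without EMX1-FL 2 (0.86), EMX1-FL 3 (1.17), vector control 2 (1.26) or vector control 3 (0.78), in the 6 libraries alone (1.15), and with limma on log2(TPM + 0.1) (0.995) and log2(TPM + 1) (0.318). In EMX1-X1 PPARGC1A was at 1.75, 0.997 and 1.29 CPM, above each control, with a log2 fold change of 0.97 ± 0.48 SE (edgeR adjusted p = 0.623), and it passed the study's threshold there with the side as a covariate (1.35), with a GC offset (1.08) and without vector control 1 (1.31). Between the isoforms it differed by 0.19 (95% interval -0.80 to 1.19). Of the 14 coregulators, 2 had a log2 fold change above 0 in EMX1-FL. An unadjusted p under 0.05 was found there for 4, against 1077 of all 18574 genes. Besides PPARGC1A these were EP300 (log2 -0.44, edgeR adjusted p = 0.567), NCOA6 (-0.36, 0.751) and CREBBP (-0.42, 0.758). These 3 were lower and are named after their values were seen.

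Because ONECUT1 and PROX1 also mark other cells, lists of those cells were read. Of 10 biliary and progenitor genes, KRT7 was at 0 and KRT19 had 1 count, and SOX9 had 7 to 22 counts a library. CD24, a surface glycoprotein of progenitor and cancer cells, was at 16.6, 17.0 and 18.9 CPM in the vector control, 36.7, 52.7 and 51.5 CPM in EMX1-FL and 40.4, 31.7 and 29.8 CPM in EMX1-X1. It was the gene of these lists that passed the adjusted threshold, in EMX1-FL (log2 1.42 ± 0.20 SE, edgeR adjusted p = 0.0372), while in EMX1-X1 its log2 fold change was 0.96 ± 0.20 SE (adjusted p = 0.310). The study's threshold was passed by CD24 in EMX1-FL in all 21 alternatives (log2 fold change of 1.31 to 1.57), and the adjusted threshold in 10 of them. It was missed without EMX1-FL 2 (adjusted p = 0.205), EMX1-FL 3 (0.14), EMX1-X1 2 (0.0983), EMX1-X1 3 (0.0869) or any 1 of the vector controls (0.231 to 0.365), in the 6 libraries alone (0.109), with the replicate block (0.335) and in both limma fits (0.064 and 0.0663). Within the sides the EMX1-FL difference of CD24 was 1.63 on side A (2 against 2) and 0.95 on side B (1 against 1) in log2 CPM. The summed level of the 10 genes was 259 to 287 TPM in the vector control, 367 to 457 TPM in EMX1-FL and 374 to 395 TPM in EMX1-X1, most of it SOX4 and CD24.

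Of 8 endothelial genes, the lymphatic marker PDPN and the junction gene CDH5 were at 0 in every library, LYVE1 had 2 counts in all, and the summed level of the 8 was 16.0 to 34.0 TPM, nearly all of it FLT4. FLT4 did not pass in any comparison. Of 6 leukocyte genes none was tested, at a summed level of 0 to 0.452 TPM. The 8 stellate and mesenchymal genes stood at a summed 771 to 1188 TPM, mostly VIM, and 1 of the 5 tested, ACTA2 (smooth muscle actin), was lower in EMX1-FL than in EMX1-X1 (log2 -1.13 ± 0.27 SE, edgeR p = 0.00119, adjusted p = 0.611; exact permutation p = 0.1). The fold change was under the threshold without EMX1-FL 2 (-0.97), without EMX1-X1 3 (-0.93) and with the side as a covariate (-0.94), with an unadjusted p under 0.05 in each. The adjusted threshold was passed without EMX1-FL 1 (-1.38, adjusted p = 0.0457) and with no filter beyond 1 count (-1.14, adjusted p = 0.00493). ACTA2 shares 30.8% of exon bases with other genes, where read pairs were not counted. Between the isoforms 1.42% of all genes passed the study's threshold. Of the 5, 3 had an unadjusted p under 0.05, against 1418 of all 18574 genes, and 3 were without overlap, against 8.38%. These were not the same 3 genes. RGS5 (log2 0.54, edgeR adjusted p = 0.611) and VIM (0.30, 0.611) were higher in EMX1-FL. RGS5 had an unadjusted p under 0.05 but overlapped between the groups (exact permutation p = 0.2). VIM was without overlap (exact permutation p = 0.1), but its unadjusted p was not under 0.05. COL1A1, a collagen gene, was lower in EMX1-FL like ACTA2. It had 756, 548 and 559 counts in EMX1-FL, against 918, 1444 and 1396 in EMX1-X1. DCX and SOX17, markers of neurons and early endoderm, were at 0, and none of the 3 neural and 4 other endodermal genes tested passed in any comparison in edgeR, and NKX6-1 alone of these had an unadjusted p under 0.05 (0.0205, EMX1-FL against EMX1-X1). Other genes of these 2 lists were expressed. The summed level was 8.28 to 15.1 TPM for the 7 neural genes and 33 to 71.4 TPM for the 6 other endodermal genes. NKX6-1 had group means of 27.3 TPM in the vector control, 24.7 TPM in EMX1-FL and 39.4 TPM in EMX1-X1. For TUBB3, of the neural list, they were 6.62, 8.75 and 10.5 TPM in the same order. The part of the genes of all these lists in the levels of ONECUT1 and PROX1 was not tested.

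For each factor tested, the 2 genes with the most similar pattern over the 9 libraries were found by the root mean square difference of centred log2 CPM. For ONECUT1 they were PTPRM, a receptor tyrosine phosphatase (0.132), and SLC35F1, a solute carrier family gene (0.151). PTPRM had log2 fold changes of 1.19 in EMX1-FL and 0.87 in EMX1-X1, and SLC35F1 of 0.88 and 0.65. For PROX1 they were SYNPR, the synaptic vesicle gene synaptoporin (0.280), and AC102945.2 (0.317, with 2 to 21 counts). For CEBPA they were PLPPR3 (0.068) and ZNF787 (0.070), for FOXA1 LRIG1 (0.052) and AC067750.1 (0.053), and for FOXA3 FBF1 (0.164) and EGLN2 (0.165). The likeness is a description over 9 libraries.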

How the data were processed

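RNA was sequenced from 9 SNU-398 libraries, 3 a group as the sample labels give them. Per the labels and the file headers, the authors trimmed reads with fastp and aligned them to GRCh38 with STAR. The deposited counts are read pairs on exons of each gene name in Ensembl release 99, without strand. The header names featureCounts 2.0.1, the labels 2.0.6 and the study's methods RSEM. A second deposited table holds TPM on a log2 scale, log2(TPM + 1), and was recomputed from the counts to within 5.0e-06. The total count per library, 21562703 to 25197970, sets the precision of each value.

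The quasi-likelihood test of edgeR 4.0.16 in R 4.3.3 was fitted to all 9 libraries with a term for group, after filterByExpr and TMM normalization. Benjamini-Hochberg adjustment ran over 18574 genes in each of 3 comparisons. CPM used TMM library sizes. Permutation tests were exact and two-sided, on log2(CPM + 0.1). Intervals cover 95%. Same-group libraries differed by more than sampling noise, and none was merged. Sequences came from RefSeq windows, and gene positions from the count table. GC content was at hand for 95.6% of the genes tested. The fit was tested on simulated counts with known changes, drawn without the sides or the GC pattern of these libraries. It therefore does not show how the fit behaves where libraries differ by side.

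The members and the 10 gene lists were chosen with earlier results of these data known. Genes named were the 8 factors, EMX1, the genes of each list past the study's threshold, the 2 with the highest mean TPM in each list and the 2 most similar to each factor tested. Other genes were named after their values were seen, and some listed genes are not reported here. Alternatives were DESeq2 1.42.0, scaling by RLE, by upper quartile or by library size, limma 3.58.1 with a pseudocount of 1 or 0.1 on TPM, other filters, 6 libraries, the replicate block, the p alone, the side of the first component, 9 fits with a library left out and, added after the data were seen, a GC offset (loess, span 0.3). Python 3.11.15 with pandas 2.3.3, scipy 1.17.1 and matplotlib 3.10.9 made the tables and plots.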

Additional observations from a re-analysis of the deposited data

How the results depend on the processing

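Against the vector control 2 factors were called in EMX1-FL and 1 in EMX1-X1, and 0 between the isoforms. With at least 10 counts in every library, which leaves PROX1 untested, they were 1 and 0 in the first pair. With limma on log2(TPM + 1), where the pseudocount of 1 exceeds the level of PROX1 and shrinks its fold change, they were 0 and 0, with ONECUT1 at 0.60 and PROX1 at 0.47 in EMX1-FL. With the p alone EMX1-X1 had 2, ONECUT1 and PROX1. Leaving out each library in turn gave 2 in EMX1-FL each time, 0 to 1 in EMX1-X1 and 0 between the isoforms. ONECUT1 was called in EMX1-FL in 20 of its 21 alternatives and PROX1 in 19 of 20.

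For the other liver transcription factors, the count in EMX1-FL (1) was 0 with the GC offset, 0 with the side as a covariate and 5 with the p alone. With a library left out it was 0 to 1, and without EMX1-FL 1 the factor called was ONECUT2 in place of CEBPD. In EMX1-X1 (0) the count was 1 with library size alone, 5 with the p alone and 0 to 2 with a library left out. Between the isoforms (1) the count was 0 with the GC offset, 0 with the side, 5 with the p alone and 0 to 2 with a library left out. For the hepatocyte targets, the count in EMX1-FL (1) was 0 with limma on log2(TPM + 1) and 1 to 2 with a library left out. In EMX1-X1 (1) it was 0 with limma on log2(TPM + 1), 2 with no filter beyond 1 count, 2 with only the 6 libraries, and 0 to 2 with a library left out. For the bile acid genes the count of 0 in EMX1-X1 and of 0 between the isoforms became 1 with the p alone. Over all genes, the number past the study's threshold in EMX1-FL (450) was 676 without EMX1-FL 1, and in EMX1-X1 (464) 906 without EMX1-X1 1. The cause of these moves was not tested.

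Some fold changes near 0 turned direction, none of them reaching the fold change threshold. FOXA3 in EMX1-FL was 0.021 with library size alone, 0.067 and 0.050 with limma on log2(TPM + 0.1) and log2(TPM + 1), 0.002 with upper-quartile factors, and -0.29 to 0.17 with a library left out. In EMX1-X1 with the GC offset FOXA1 was -0.21, FOXA3 -0.15 and CEBPA -0.023, and FOXA1 was -0.001 with at least 10 counts and -0.002 with the side. With a library left out FOXA1 was -0.07 to 0.081 and FOXA3 -0.081 to 0.52 in EMX1-X1, and CEBPA -0.51 to 0.056 in EMX1-FL. Between the isoforms the GC offset gave 0.072 for FOXA1, 0.071 for FOXA3, -0.02 for ALB and -0.016 for PPARGC1A, which was -0.14 with the side. There, a library left out gave -0.59 to 0.062 for FOXA3, -0.54 to 0.40 for CEBPD, -0.007 to 0.65 for ALB and -0.089 to 0.43 for PPARGC1A.

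Same-numbered libraries did not deviate together in every pair (correlations of -0.522 to 0.29), so the numbers were not taken to pair them. With the replicate block the counts of factors called stayed 2, 1 and 0, and ONECUT1 in EMX1-FL was 1.16 in edgeR (adjusted p = 0.786). Low counts limit PROX1 (3 to 46 a library), ONECUT1 (19 to 58) and FOXA3 (26 to 72).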
